A study of Mus musculus with 6 samples.

Results

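The class II antigen, complement C1q and macrophage marker genes described here were 10 genes chosen as a list of names. Earlier results of these data were known when they were chosen. They are H2-Aa, H2-Ab1, H2-Eb1, Cd74, C1qa, C1qb, Csf1r, Cd68, Ctss and Lyz2. All 10 were on the array, among 8251 genes with a probe set of their own. They had 14 of the 12422 probe sets that are not controls, counting probe sets whose annotation gives exactly 1 gene symbol, and 11 of the 14 were bright enough to be tested, with every gene keeping at least 1.

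The study measured total RNA of soleus, a slow postural muscle, in male mice on Affymetrix arrays. The knockout group was 3 samples of BERKO mice, which lack estrogen receptor beta, and the wild-type group was 3 samples of C57BL/6 mice. No treatment, age or knockout strain is given, nor whether each sample was 1 animal. The p-values then speak only of the spread between these samples, which may be technical. Replicate numbers follow the order of deposit, and replicate 2 of each group carries a different title prefix from the other 4 samples. The single Esr2 probe set read 3.9 to 8.4 in the knockout and 1.3 to 3.2 in wild type, too dim to check the labels.

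Class II molecules are pairs of an alpha and a beta chain that show peptides from engulfed protein to T cells, and they are found on macrophages, dendritic cells and B cells. The invariant chain Cd74 holds the peptide groove of new class II pairs until proteases, cathepsin S among them, trim it away. Muscle holds resident macrophages between its fibres, which clear debris, and macrophages are a main source of C1q, the first component of the classical complement pathway.

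The promoters of H2-Aa and H2-Eb1 are shown because class II genes are known to be switched on together through a shared promoter module, an X box followed by a Y box. The windows run from 250 bases before to 50 bases after the gene start, from RefSeq on GRCm38.p6. H2-Aa is on the minus strand at chr17:34287774-34288073 and H2-Eb1 on the plus strand at chr17:34305617-34305916. Capitals mark TNGCAACT, the letters that both windows share at the X box, and ATTGG, the core of the Y box, on the strand of the gene. A further ATTGG on the other strand of H2-Eb1 is left in lower case.
H2-Aa: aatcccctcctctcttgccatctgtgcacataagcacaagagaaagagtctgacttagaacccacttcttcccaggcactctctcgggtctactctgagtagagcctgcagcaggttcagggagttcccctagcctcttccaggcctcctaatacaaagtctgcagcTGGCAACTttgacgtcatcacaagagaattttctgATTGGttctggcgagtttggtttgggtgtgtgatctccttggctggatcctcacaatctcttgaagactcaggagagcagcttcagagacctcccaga
H2-Eb1: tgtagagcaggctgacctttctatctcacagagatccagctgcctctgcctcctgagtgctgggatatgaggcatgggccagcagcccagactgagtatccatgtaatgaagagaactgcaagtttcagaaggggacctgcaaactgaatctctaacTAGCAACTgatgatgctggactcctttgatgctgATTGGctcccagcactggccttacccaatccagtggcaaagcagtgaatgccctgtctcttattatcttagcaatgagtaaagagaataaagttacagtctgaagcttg
TNGCAACT begins 83 bases before the start of H2-Aa and 93 before that of H2-Eb1, and 27 and 26 bases separate it from ATTGG. The letters were read from these windows, so their match is by construction. Searched on both strands of 32851 promoter windows of 300 bases, TNGCAACT was in 2.99% and ATTGG in 37.4%. Both in this order, 10 to 30 bases apart, were in 19 windows (0.0578%), these 2 among them. Windows for 6 of the 10 genes were in the table, and of the other members searched there, C1qb, Ctss and Lyz2 had neither motif and Cd68 had ATTGG alone. A match describes letters and is no evidence of binding in these samples.

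No class II, C1q or macrophage gene differed between knockout and wild type by the adjusted test. Their most visible pattern lay in 1 sample: wild-type replicate 3 was the highest of the 6 arrays for 8 of the 11 probe sets. Over all 6369 probe sets tested, that array was the highest for 16.3%. On these 8 probe sets it read 1.55 to 3.26 times the mean of the other 5 arrays. A level of at least 1.5 times that mean was reached by 2.57% of all probe sets tested. Each member's difference is therefore given with and without this array.

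H2-Aa, the alpha chain of the I-A class II molecule, read 75.7, 73.9 and 37.0 in the knockout, against 63.5, 61.1 and 202.9 in wild type, in units of deposited signal intensity. Wild-type replicate 3 stood 2.68 times above the next array, and the other wild-type values lay inside the knockout range. The log2 difference, knockout minus wild type, was -0.64 ± 0.46 (SE; limma adjusted p = 0.958), and -0.07 ± 0.33 without that array (adjusted p = 0.984).

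H2-Ab1, the beta chain that pairs with H2-Aa, read 74.2, 74.9 and 35.4 in the knockout, against 60.3, 33.9 and 120.6 in wild type. Wild-type replicate 3 was again the highest, while knockout replicate 3 and wild-type replicate 2 were low. The log2 difference was -0.11 ± 0.45 (SE; limma adjusted p = 0.996) and turned to 0.36 ± 0.40 without that array (adjusted p = 0.951).

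H2-Eb1, the beta chain of the I-E molecule, read 150, 134 and 170 in the knockout, against 161.3, 200.2 and 252.4 in wild type. Only wild-type replicate 1 lay inside the knockout range. Its log2 difference of -0.42 ± 0.18 (SE; limma adjusted p = 0.923) was the one member value under an unadjusted p of 0.05, where 5.24% of all probe sets tested lay. Without wild-type replicate 3 it was -0.25 ± 0.17 (adjusted p = 0.914). H2-Ea, the alpha chain that I-E needs and that C57BL/6 mice are known not to express, read 1.8 to 13.4 in the knockout and 3.3 to 9.0 in wild type, near or below the floor of 7.8 under which values were not ordered. It was named after its values were seen.

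Cd74, the invariant chain, read 298.2, 233.4 and 230.2 in the knockout, against 281.6, 255.6 and 454.6 in wild type. Apart from wild-type replicate 3 the arrays spanned 230.2 to 298.2, with the groups mixed. Knockout minus wild type was -0.34 ± 0.22 on the log2 scale (SE; limma adjusted p = 0.958), or -0.09 ± 0.16 without that array (adjusted p = 0.974). Thus all 4 class II probe sets had wild-type replicate 3 highest. Their summed intensity was 472.6 to 598.1 in the knockout and 550.8 to 1030.5 in wild type, where the highest value without that array was 566.7.

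**Figure D1:**
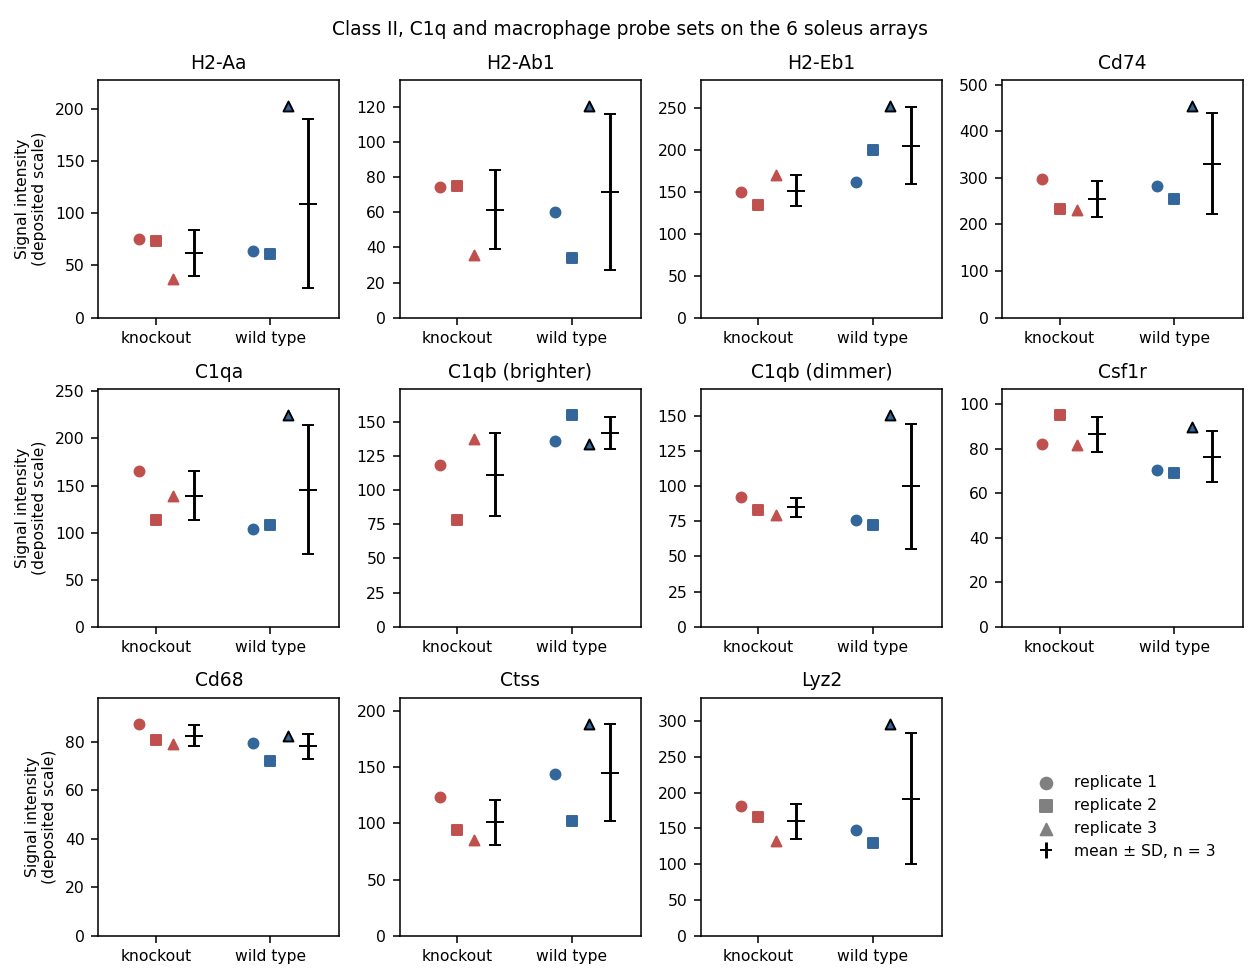
Deposited signal intensity (vertical axes, from 0) of the 11 tested probe sets, with 1 panel per probe set, knockout left of wild type, a marker shape per replicate and a bar for the mean ± SD of 3 arrays. The outlined triangle is wild-type replicate 3, the highest array in 8 panels (202.9 for H2-Aa, where the next array reads 75.7).

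C1qa, the A chain of C1q, read 165.9, 113.6 and 138.4 in the knockout, against 103.6, 108.3 and 225.3 in wild type. All knockout arrays lay above wild-type replicates 1 and 2 and below replicate 3. Knockout minus wild type was 0.02 ± 0.29 on the log2 scale (SE; limma adjusted p = 0.997) and 0.38 ± 0.19 without wild-type replicate 3 (adjusted p = 0.914).

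C1qb, the B chain, had 2 tested probe sets that disagreed. The dimmer one read 92.7, 83.0 and 79.8 in the knockout, against 76.3, 72.5 and 151.1 in wild type, with the same order of groups as C1qa. The log2 difference was -0.15 ± 0.27 (SE; limma adjusted p = 0.984), and 0.19 ± 0.17 without wild-type replicate 3 (adjusted p = 0.924). The brighter one read 118.5, 77.8 and 137.5 in the knockout, against 135.6, 155.2 and 133.9 in wild type, and here wild-type replicate 3 was the lowest of its group. Its log2 difference was -0.38 ± 0.21 (SE; limma adjusted p = 0.937), and -0.42 ± 0.24 without that array (adjusted p = 0.914). Across the 6 arrays the C1qb probe sets had r = 0.00114 and rho = -0.714 with each other (exact permutation p = 0.999 and 0.136; adjusted over 11 relations of these probe sets p = 0.999 and 0.214; r = -0.836 without knockout replicate 1 and wild-type replicate 3). With C1qa, the dimmer one had r = 0.922 and rho = 0.886 (exact permutation p = 0.0111 and 0.0333; adjusted p = 0.0509 and 0.0917; r = 0.456 without the same arrays), whereas the brighter one had r = 0.110 and rho = -0.371 (exact permutation p = 0.872 and 0.497; adjusted p = 0.959 and 0.547; r = -0.268 without knockout replicate 2 and wild-type replicate 2). Which of them measures C1qb is not known.

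Csf1r, the receptor that macrophages need for survival, read 82.1, 95.3 and 81.8 in the knockout, against 70.6, 68.9 and 89.9 in wild type. Wild-type replicates 1 and 2 were the lowest of the 6 arrays. On the log2 scale the difference was 0.18 ± 0.17 (SE; limma adjusted p = 0.958), and 0.31 ± 0.18 without wild-type replicate 3 (adjusted p = 0.914). Its other probe set stayed below the filter, at 17.8 to 36.7 in the knockout and 7.3 to 37.6 in wild type.

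Cd68, a glycoprotein of macrophage lysosomes, varied little between arrays. It read 87.6, 81.0 and 79.2 in the knockout, against 79.7, 72.2 and 82.5 in wild type. Wild-type replicate 3 was 1.03 times the mean of the other arrays, and the log2 difference was 0.08 ± 0.15 (SE; limma adjusted p = 0.984), or 0.12 ± 0.17 without that array (adjusted p = 0.971). Its dim probe set read 0.5 to 1.6 in the knockout and 0.8 to 7.1 in wild type, all at or below the floor.

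Ctss, the gene of cathepsin S, read 123.6, 94.0 and 85.2 in the knockout, against 144.4, 102.3 and 189.1 in wild type. Only wild-type replicate 2 lay inside the knockout range. On the log2 scale the difference was -0.50 ± 0.23 (SE; limma adjusted p = 0.923) and -0.29 ± 0.22 without wild-type replicate 3 (adjusted p = 0.919).

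Lyz2, the lysozyme of macrophages and neutrophils, read 181.1, 165.5 and 132.2 in the knockout, against 148.1, 129.8 and 296.5 in wild type. Wild-type replicate 3 stood 1.64 times above the next array. The log2 difference was -0.17 ± 0.28 (SE; limma adjusted p = 0.984) and 0.19 ± 0.18 without that array (adjusted p = 0.933). A probe set annotated to both Lyz1 and Lyz2, not counted among the members, read 128.3, 121.2 and 113.5 in the knockout, against 107.3, 81.6 and 265.7 in wild type, so the same array was the highest there. The dim Lyz2 probe set read 0.9 to 10 in the knockout and 2.1 to 5.8 in wild type.

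Counted over the 11 tested probe sets, 0 were called by limma at the adjusted threshold of 0.05, as were 0.0% of all probe sets tested, and 1 was under an unadjusted p of 0.05. The groups overlapped for all 11, while 10.7% of all probe sets tested had groups that did not overlap. Of the 11 differences 8 were below 0, against 53.2% over all probe sets tested. Without wild-type replicate 3, 5 were below 0 and 6 above, and 0 had an unadjusted p under 0.05. The median log2 difference of the 11 was -0.17 with all arrays and 0.12 without that array, beside medians over all probe sets tested of -0.02 in both fits. Within the 4 arrays of the larger title prefix the median was -0.34, and between the replicate 2 arrays, 1 against 1, it was 0.17 (all probe sets tested, -0.01 and 0.0065).

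**Figure D2:**
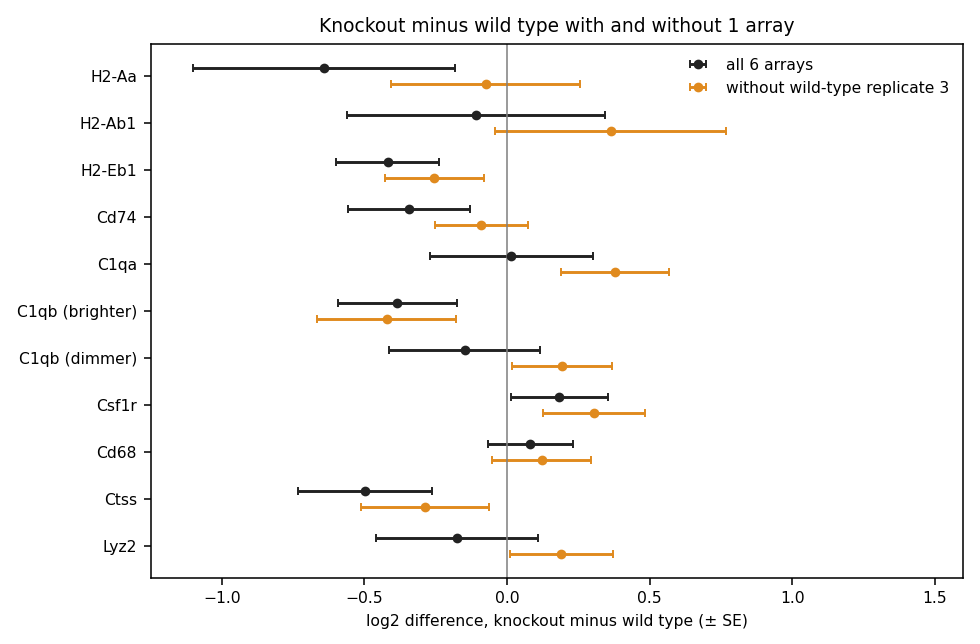
Log2 difference, knockout minus wild type (horizontal axis; points with bars of ± SE from limma), for the 11 tested probe sets, in black with all 6 arrays and in orange without wild-type replicate 3. The black points run from -0.64 for H2-Aa to 0.18 for Csf1r. Without that array 6 points stand above 0, of which H2-Ab1, C1qb (dimmer) and Lyz2 were below 0 with all arrays.

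The covariation of the genes across the 6 arrays was measured on log2 intensities, with the brightest tested probe set of each gene, which for C1qb is the one that did not follow C1qa. The 45 pairs had a median Pearson r of 0.58, in a range of -0.74 to 0.95, where the median over all pairs of probe sets tested was -0.00035. Of the 45 pairs 9 had r above 0.8, as did 3.20% of all pairs. With deviations from the group means in place of the values the median was 0.71, so the covariation was also present inside the groups, wild-type replicate 3 included.

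Among these 45 pairs H2-Aa with Lyz2, Cd74 with Ctss and H2-Ab1 with Lyz2 had the highest r. Each of them joined a class II gene with a macrophage gene. The 16 pairs of this kind had a median r of 0.61, against 0.75 for the 6 pairs within class II. The highest r with any other member was 0.63 for Csf1r and 0.70 for Cd68. H2-Aa and Lyz2 had r = 0.947 and rho = 0.943 (exact permutation p = 0.00694 and 0.0167; adjusted over the 45 pairs p = 0.0938 and 0.188), and r = 0.956 without knockout replicate 3 and wild-type replicate 3, the arrays farthest from the median of H2-Aa. Cd74 and Ctss, the invariant chain and a protease that trims it, had r = 0.934 and rho = 0.943 (exact permutation p = 0.00556 and 0.0167; adjusted p = 0.0938 and 0.188), and r = 0.837 without the same arrays. For H2-Ab1 and Lyz2 r was 0.915 and rho 0.943 (exact permutation p = 0.00417 and 0.0167; adjusted p = 0.0938 and 0.188), and r was 0.986 without knockout replicate 3 and wild-type replicate 2. The chains of I-A, H2-Aa and H2-Ab1, had r = 0.870 and rho = 0.886 (exact permutation p = 0.00833 and 0.0333; adjusted p = 0.0938 and 0.188), and r = 0.855 without knockout replicate 3 and wild-type replicate 3. Of the 45 pairs 10 had an unadjusted p under 0.05 by Pearson's r and 8 by Spearman's rho, and 0 passed adjustment by either. The share of all pairs of probe sets tested under that p was not computed. Both counts include a negative relation, the brighter C1qb probe set with Csf1r. It had r = -0.744 and rho = -0.886 (exact permutation p = 0.0486 and 0.0333; adjusted p = 0.219 and 0.188), and r = -0.162 without knockout replicate 2 and wild-type replicate 2. Of the 45 pairs 7 had r below 0. The dimmer C1qb probe set, outside the 45 pairs, had a higher r with Lyz2 than any of them, with r = 0.976 and rho = 0.943 (exact permutation p = 0.00556 and 0.0167; adjusted over the 11 relations p = 0.0509 and 0.0917), r = 0.691 without knockout replicate 1 and wild-type replicate 3, and r = 0.870 without wild-type replicate 3 alone.

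Without wild-type replicate 3 alone, r was 0.736 for H2-Aa with Lyz2 and 0.762 for H2-Aa with H2-Ab1. Other pairs had a still lower r once arrays were left out. H2-Aa and Cd74 had r = 0.914 and rho = 0.829 (exact permutation p = 0.0264 and 0.0583; adjusted p = 0.180 and 0.219), but r = 0.552 without wild-type replicate 3 alone and 0.0501 without knockout replicate 3 as well. C1qa and Lyz2 had r = 0.854 and rho = 0.714 (exact permutation p = 0.0306 and 0.136; adjusted p = 0.180 and 0.322), but r = 0.480 without wild-type replicate 3 alone and -0.329 without knockout replicate 1 as well. Over the 5 arrays without wild-type replicate 3 the median of the 45 pairs was 0.28, and 17 of them had r below 0. Of the 9 pairs with r above 0.8, 2 stayed above it, H2-Ab1 with Lyz2 (0.943) and Cd74 with Ctss (0.893). On these 5 arrays 4 of the 45 pairs had r above 0.8, as did 5.71% of all pairs of probe sets tested.

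H2-Eb1 did not follow the I-A chains on those 5 arrays. Its r with H2-Ab1 was 0.186 and rho -0.143 over all 6 (exact permutation p = 0.757 and 0.803; adjusted p = 0.834 and 0.860; r = 0.827 without knockout replicate 3 and wild-type replicate 2), and r was -0.883 without wild-type replicate 3. The 6 pairs within class II had a median r of 0.75 over all arrays and 0.21 without that array. Those within the macrophage markers had 0.57 and 0.46. Csf1r had r = 0.419 with H2-Aa and 0.210 with Cd74 (rho = 0.657 and 0.143; exact permutation p of r = 0.426 and 0.731, of rho = 0.175 and 0.803; adjusted p of r = 0.600 and 0.834, of rho = 0.342 and 0.860; r = 0.871 and -0.432 without knockout replicate 3 and wild-type replicate 3). No correlation was computed within the title prefixes, which hold 4 and 2 arrays, and the values over 4 or 5 arrays show only what leaving arrays out does to r.

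**Figure D3:**
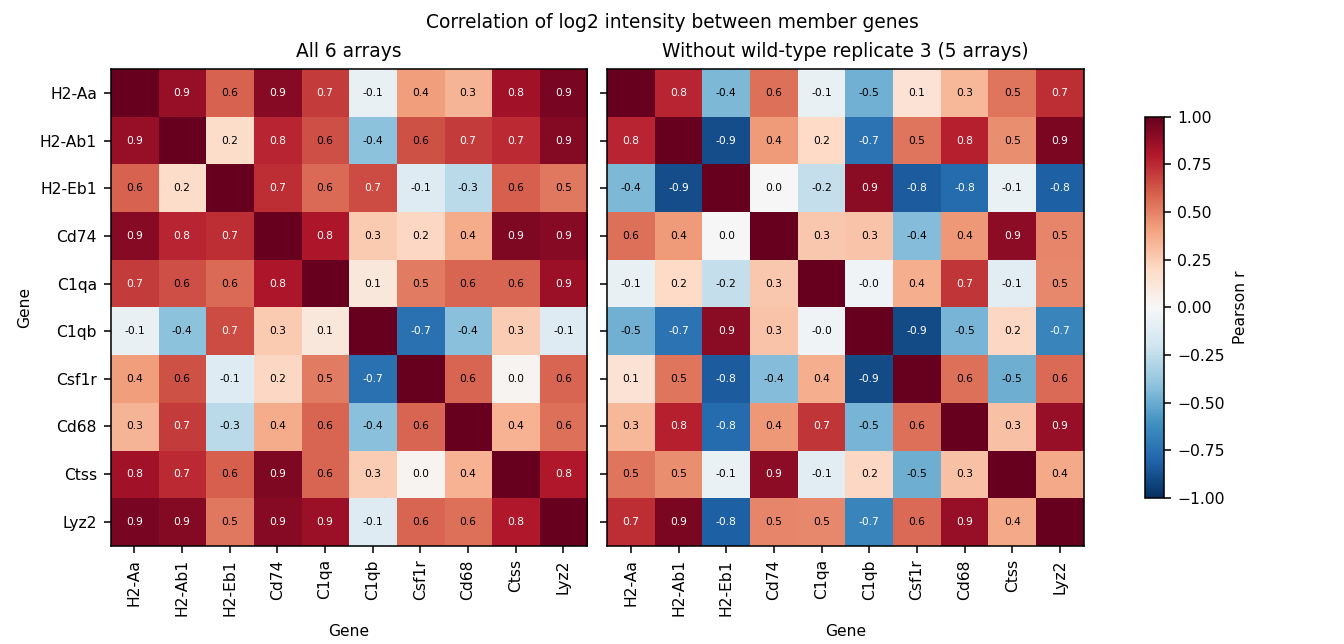
Pearson r of log2 intensity between the 10 genes, brightest tested probe set each, over all 6 arrays (left) and over the 5 arrays without wild-type replicate 3 (right). The colour scale runs from -1 to 1, the diagonal is the gene with itself, and the median of the 45 pairs is 0.58 on the left and 0.28 on the right.

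Lists of other genes of these pathways and of the cells a muscle sample can hold were read on the same arrays. Tested genes are given by their brightest tested probe set. In this bulk tissue fewer cells of a type and less RNA per cell cannot be told apart. Of 24 class II pathway partners 21 were on the array and 10 were tested. By limma 0 passed the adjusted test, 9 were below 0 and 1 above, with a median log2 difference of -0.16, and -0.09 without wild-type replicate 3, which was the highest array for 6 of them. Ciita, the coactivator that switches class II genes on, read 30.9, 30.2 and 39.8 in the knockout, against 47.4, 58.1 and 32.2 in wild type, where wild-type replicate 3 was the lowest of its group. Nfya, a subunit of the factor that binds the Y box, read 34.8, 34.0 and 30 in the knockout, against 41.8, 42.4 and 44.2 in wild type, without overlap (log2 difference -0.38 ± 0.26, SE; adjusted p = 0.958; -0.36 without wild-type replicate 3). All knockout values of Nfya lay below the filter of 39.4 and all its wild-type values above it. Nfya was thus tested through its wild-type arrays alone. Ctsb, a lysosomal protease, had a log2 difference of -0.14, and -0.05 without wild-type replicate 3. Its other tested probe sets stood at 0.16 and -0.06 with all arrays. Of the loading factor H2-DMa, which was below the filter, 1 probe set read 22.2, 27.5 and 24.6 in the knockout, against 40.3, 26.6 and 105.3 in wild type, a gene named after its values were seen. The other H2-DMa probe set did not show this rise. It read 20.6, 16.3 and 19.7 in the knockout, against 13.8, 21.4 and 15.9 in wild type.

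Of 18 complement genes 13 were on the array and 6 were tested. By limma 0 passed, wild-type replicate 3 was the highest array for 3, and the median log2 difference was -0.11 with all arrays and 0.04 without that one. C1qc, the C chain of C1q, read 263.9, 198.1 and 264.6 in the knockout, against 251.2, 239.5 and 342.3 in wild type, with that array again the highest (log2 difference -0.19 ± 0.18, SE; limma adjusted p = 0.958; -0.03 without it). The protease C1ra stood at -0.19, and at -0.32 without that array. Its other tested probe set stood at -0.16, and at -0.09 without wild-type replicate 3. Serping1, the inhibitor of C1, stood at -0.16, and at 0.0015 without it.

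Of 39 other macrophage and monocyte markers 32 were on the array and 12 were tested. By limma 0 passed the adjusted test, 9 were below 0 and 3 above, with a median log2 difference of -0.16, and -0.06 without wild-type replicate 3. Folr2, a folate receptor of resident macrophages, read 57.4, 44.5 and 36.4 in the knockout, against 69.7, 53.1 and 77.2 in wild type (log2 difference -0.54 ± 0.24, SE; limma adjusted p = 0.923; -0.43 without wild-type replicate 3). Mpeg1, a pore-forming protein of macrophages, stood at -0.51 (-0.54 without that array) and the chemokine receptor Cx3cr1 at -0.29 (-0.39 without it), and the groups of Cx3cr1 did not overlap. The summed intensity of the 12 was 873.4 to 978.7 in the knockout and 969.1 to 1119.1 in wild type, with the highest value on wild-type replicate 3. Some defining markers of macrophages and leukocytes were near the floor on all arrays, unlike the 12 that were tested. Adgre1, known as F4/80, read 0.6 to 8.0 in the knockout and 0.3 to 10.1 in wild type over 2 probe sets, Itgam 4.4 to 7.8 and 4.2 to 10.5, and Ptprc, known as CD45, 0.2 to 10.4 and 0.4 to 8.3. The macrophage label thus rests on Csf1r, Cd68 and the brighter genes. Adgre1, Itgam and Ptprc were named after their values were seen.

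The lists were also read by their mean deviation on wild-type replicate 3. On that array the 4 class II members averaged 0.92 above their own mean over the 6 arrays on the log2 scale, the C1q members 0.42 and the macrophage members 0.42. The class II partners, complement genes and other macrophage markers averaged 0.24, 0.25 and 0.25. Endothelial markers averaged 0.09, fibroblast markers 0.11 and muscle fibre markers -0.03. Neutrophil markers, cells that also make Lyz2, stood at -0.02 over 4 tested genes, B cell markers at -0.08 over 3, dendritic cell markers at 0.17 over 4 and mast cell markers at 0.20 over 2. These lists hold few tested genes, and T and NK cell markers had 1 tested gene, Cd4, at 21.5, 51.0 and 45.5 in the knockout, against 58.5, 35.4 and 12.8 in wild type. Its deviation on wild-type replicate 3 was -1.37, larger in size than that of the class II members. Neutrophil markers below the filter went both ways on that array. S100a9 was the highest there (24.5), and S100a8 read 55.3, second to knockout replicate 1 (59.5). Ltf, Ngp and Cxcr2 were the lowest there (6.1, 7.4 and 14.2). These genes were named after their values were seen. The part of any cell type in the reading of that array was not tested. The deviations of the lists were not tested against each other.

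In these lists of other cells 0 genes passed the adjusted limma test. The genes with the smallest p were Xcr1, Flt3 and Itgax of dendritic cells (log2 differences -0.72, -0.17 and 0.12), Pax5, Ighm and Ms4a1 of B cells (0.22, -0.21 and 0.15), Cd4 (0.30), Elane, Camp and Csf3r of neutrophils (0.28, 0.09 and -0.03), and Cma1 and Tpsb2 of mast cells (0.14 and 0.12). Among structural cells they were Cd34, Tek and Pecam1 of endothelium (-0.27, -0.27 and -0.32), Mfap5, Dpt and Pdgfra of fibroblasts (-0.45, -0.33 and -0.42) and Mb, Acta1 and Myl3 of muscle fibres (0.27, 0.29 and 0.21). Other tested probe sets had the opposite sign for Ighm (0.23), Pdgfra (0.13) and Mfap5 (0.04). They had the same sign for Flt3 (-0.12), Cd34 (-0.09) and Tpsb2 (0.03). Without wild-type replicate 3 the sign turned for Cd4 (-0.31) and Csf3r (0.02). The size moved by over 1.5 times for Itgax (0.26), Flt3 (-0.09), Ms4a1 (0.06), Cma1 (0.37) and Pdgfra (-0.24). Xcr1 read 64.3, 11.3 and 65.8 in the knockout, against 59.6, 59.6 and 59.8 in wild type. Its difference thus came from knockout replicate 2, and knockout replicates 1 and 3 lay above wild type.

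**Figure D4:**
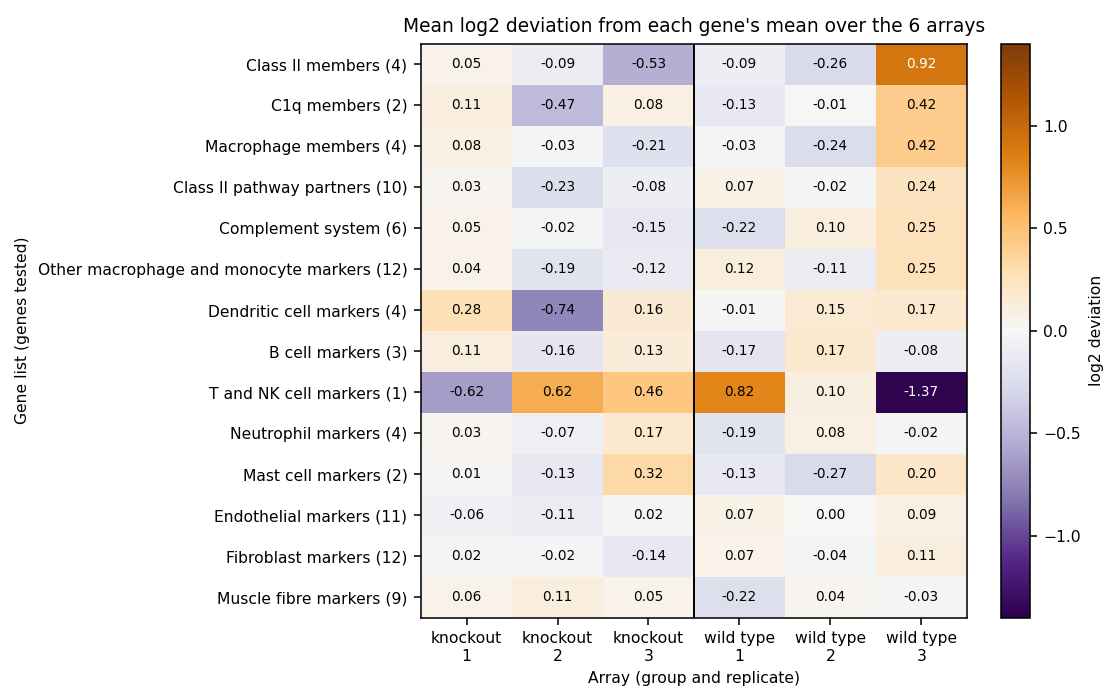
Mean log2 deviation of each list's tested genes (rows, with the number tested) from their own mean over the 6 arrays, by array (columns, knockout left of wild type). Wild-type replicate 3 reads 0.92 for the class II members and 0.42 for both the C1q and the macrophage members, against -0.03 for muscle fibre markers.

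The genes most like the members were sought among 5697 tested probe sets of other genes, by Pearson r over the 6 arrays with the mean standardised profile of a group. With so many probe sets and 6 arrays high values are bound to be found (10 and 16 probe sets had r above 0.95 with the class II and the macrophage profile), and they are given as a description. For class II they were Selenbp1 (r = 0.983), Xdh (0.979), Btg2 (0.977), Dpep1 (0.977), Ube2h (0.973) and Apoe (0.971). Apoe, the gene of the lipid carrier apolipoprotein E, read 250.3, 255.6 and 159.4 in the knockout, against 218.4, 251.4 and 639.4 in wild type. Wild-type replicate 3 was thus the highest and knockout replicate 3 the lowest, as for H2-Aa. For the macrophage markers they were Dnm1l (0.988), Fn1 (0.986), Dnajb4 (0.984), Mrpl44 (0.972), Snrnp40 (0.972) and Atf6 (0.972). Fn1, fibronectin, read 250.8, 238.3 and 227.9 in the knockout, against 236.5, 219.6 and 259.4 in wild type, a narrow range with wild-type replicate 3 at its top and wild-type replicate 2 at its bottom.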

How the data were processed

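The values used were the signal intensities that the authors deposited, 1 per probe set and array on a linear scale. How they were summarised is not stated there. Trimmed by 2% at either end, the mean intensity of every array was 100.07, and this scaling was kept. Array medians were 36.8 to 39.3 in the knockout and 39.8 to 40.5 in wild type.

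Of 12488 probe sets 66 controls were left out. Names came from the annotation of the array design where it gave 1 symbol (10833 probe sets, with 396 given several and 1193 none). Anything below the 20th percentile, 7.8, was raised to this floor, and log2 was taken. Testing required an intensity above the median, 39.4, on at least 3 of 6 arrays, which left 6369 probe sets. Knockout minus wild type was fitted with limma 3.58.1 in R 4.3.3 (eBayes with an intensity trend, two-sided, Benjamini-Hochberg over all tested). Correlations used exact two-sided permutation of the 6 arrays (Python 3.11.15, SciPy 1.17.1; figures with matplotlib 3.10.9). With 3 arrays a group precision is limited, and the median standard error of a difference was 0.18. In simulated data with 6316 probe sets passing the filter, 88 of the 98 that were changed 4-fold were recovered, and 57 of the 96 changed 2-fold. The standard errors of the tested member probe sets ran from 0.15 for Cd68 to 0.46 for H2-Aa. Recovery of a change in the members alone was not tested.

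The members, lists and tests were chosen with earlier results of these data known. Named are every member, up to 3 genes with the smallest p of each list, the 6 probe sets most like each profile, and those said to be named after their values were seen. The alternatives were other normalizations, floors, filters, variance models, array weights, blocks by title, the 4 arrays of 1 prefix, and leaving out each array.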

Additional observations from a re-analysis of the deposited data

How the results depend on the processing

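Over the 19 alternatives to the limma fit, 0 member probe sets passed the adjusted threshold, and their lowest adjusted p was 0.494. Over all probe sets 1 passed without the filter on low values (Hoxd1, at or below the floor on 3 arrays), 1 with adjacent title numbers as a replicate block (Myh4), and between 0 and 1 when single arrays were left out (Tuba1a, without knockout replicate 1), against 0 with all settings as described and 334 at an unadjusted p under 0.05. The deviations of arrays with adjacent title numbers correlated at -0.0052, 0.0354 and -0.0029 over probe sets, which showed no pairing in these values. Whether the numbers mark pairs is not known, as their meaning is not given. The block changed no call on a member. Of 204 single values 196 kept their sign and 8 did not, and 7 of 11 probe sets kept it throughout. Over the fits without 1 array the log2 difference ran from -0.55 to 0.36 for H2-Ab1, -0.18 to 0.38 for C1qa, -0.34 to 0.19 for the dimmer C1qb probe set and -0.41 to 0.19 for Lyz2, and C1qa was -0.012 in the 4 arrays that share a prefix. The upper end was without wild-type replicate 3 for each of these. The member median ran from -0.41 (without wild-type replicate 2) to 0.12 (without wild-type replicate 3) over these fits, and from -0.36 to -0.11 under the other alternatives. The filter at the 70th percentile left 6 member probe sets. The median r of the 45 pairs was 0.54 to 0.71 under other measures and normalizations, and 0.28 (without wild-type replicate 3) to 0.63 without 1 array. The arrays carry no detection calls, so no probe set below the floor was called absent.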
